A study of Homo sapiens with 9 samples.

Results

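The genes described here are those of the TSC complex (TSC1, TSC2 and TBC1D7), the GTPase RHEB that this complex controls, the RAG GTPases RRAGA, RRAGC and RRAGD with their regulator FLCN, and the S6 kinases RPS6KB1 and RPS6KB2. They were taken as every probe set annotated to exactly 1 of these 10 symbols, which gave 28 of the 54613 probe sets tested and 10 of 19775 genes. The study measured RNA of H69, an established human small cell lung cancer cell line, on Affymetrix arrays, and its title names the p110α isoform of phosphoinositide 3-kinase. H69 cells were treated for 24 h with PIK75 at 100 nM (3 arrays), known as an inhibitor that prefers p110α, with TGX221 at a labelled 1 mM (3 arrays), known as an inhibitor that prefers p110β, or with the solvent DMSO as the control (3 arrays, whose own treatment field reads "none"). All groups were grown in complete RPMI medium, no genotype was changed, and whether the labelled millimolar unit for TGX221 is right could not be checked here.

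In textbook accounts, growth factor signals that pass through phosphoinositide 3-kinase and AKT lead to phosphorylation of TSC2, which relieves the TSC complex's inhibition of RHEB. GTP-bound RHEB then activates the kinase complex mTORC1 on the lysosome, where RAG heterodimers (RRAGA or RRAGB paired with RRAGC or RRAGD) recruit mTORC1 when amino acids are present, and FLCN with its FNIP partners acts on RRAGC and RRAGD to allow this. S6 kinases are phosphorylated by mTORC1 and act on ribosomal protein S6 and on translation factors. These steps run through phosphorylation and nucleotide loading, which arrays do not read, so the values below are transcript levels only.

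The results on RRAGC and TSC2 are set against the 250 bases before their annotated start sites, because both stretches hold the palindromic E-box CACGTG, the core of the motif bound by MYC-family and MiT/TFE factors. Whether this motif has a part in the changes of RRAGC and TSC2 was not tested. TBC1D7 is shown beside them because it had the largest change among the members. RefSeq sequences of GRCh38.p14 were matched for 8 of the 10 genes. The stretches are chr1:38859773-38860022 on the minus strand for RRAGC, chr16:2047735-2047984 on the plus strand for TSC2 (the outer of 2 entries) and chr6:13328538-13328787 on the minus strand for TBC1D7. Each is printed 5′ to 3′ on the gene's strand, with the E-box in capitals.
RRAGC: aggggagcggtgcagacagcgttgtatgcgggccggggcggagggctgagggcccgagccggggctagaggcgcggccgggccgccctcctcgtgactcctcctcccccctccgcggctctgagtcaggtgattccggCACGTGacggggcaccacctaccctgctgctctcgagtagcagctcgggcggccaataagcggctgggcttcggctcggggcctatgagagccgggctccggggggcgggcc
TSC2: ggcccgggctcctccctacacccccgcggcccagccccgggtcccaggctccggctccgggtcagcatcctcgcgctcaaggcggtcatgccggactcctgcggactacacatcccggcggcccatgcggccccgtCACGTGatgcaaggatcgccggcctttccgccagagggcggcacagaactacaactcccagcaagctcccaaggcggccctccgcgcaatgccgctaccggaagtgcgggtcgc
TBC1D7: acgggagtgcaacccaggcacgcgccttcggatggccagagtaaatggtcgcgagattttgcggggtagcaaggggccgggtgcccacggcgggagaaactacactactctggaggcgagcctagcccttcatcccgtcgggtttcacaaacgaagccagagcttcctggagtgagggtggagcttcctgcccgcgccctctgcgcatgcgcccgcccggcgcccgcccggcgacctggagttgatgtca
The E-box lay 112 to 107 bases before the start in RRAGC and 114 to 109 bases before it in TSC2, and the letters CACGTG were not found in these windows of the other 6 matched genes. They were also absent from the window of the other TSC2 entry. Of 35116 promoter windows of the same length, 6.34% held CACGTG. The shorter letters ACGTG, the core of the hypoxia response element, searched on both strands and contained in CACGTG, were in RRAGC, the outer TSC2 entry and RHEB and in 18.5% of all windows. The forkhead motif GTAAACA, searched on both strands, was in 2.98% of all windows and in none of the 8 members. RRAGA and RRAGD are named only.

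The values are RMA values on a log2 scale, in which 1 unit is a doubling of the signal, and RMA made their distributions alike across arrays, so a shift shared by nearly every gene would not show. The array median was 7.31 to 7.33 with PIK75, 7.27 to 7.29 with TGX221 and 7.26 to 7.27 in controls, and the interquartile range was narrower with PIK75 (2.54 to 2.58) than with TGX221 (2.67 to 2.69) and in controls (2.70 to 2.71). The hybridization spikes, added at equal amount to each array's labelled RNA, averaged 0.35 higher with PIK75 than in controls, and the poly-A spikes, added to the starting RNA, 0.086 higher. Setting the spikes equal moved the median of all probe sets in PIK75 minus control to -0.27 with the hybridization spikes and to -0.0018 with the poly-A spikes, against 0.084 as deposited. Of all 54613 probe sets, 847 then passed as higher and 37576 as lower with the hybridization spikes equal. With the poly-A spikes equal 5066 were higher and 11743 lower, against 16554 and 10846 as deposited. The difference between 3′ and 5′ actin probe sets, a sign of RNA quality, was 0.467, 0.535 and 1.131 on the PIK75 arrays, 0.256 to 0.415 with TGX221 and 0.239 to 0.443 in controls. The same difference for GAPDH was -0.002 to 0.078 with PIK75, 0.003 to 0.018 with TGX221 and -0.052 to 0.013 in controls. The part of these shifts in each result was not tested beyond the values given beside it. Of the neuroendocrine markers that define this tumour type, 9 of 10 were measured and had group means of at least 9.18. With PIK75, 6 of these 9 fell and 1 rose, against 24.7% lower and 33.3% higher of all genes, with a median of -0.37 against 0.088, and the part of this in the members' falls was not tested. Markers of leukocytes, fibroblasts and endothelial cells, which the culture should lack, averaged 7.44 to 7.55 per PIK75 array, 7.26 to 7.28 per TGX221 array and 7.26 to 7.29 per control array, and 7 of 12 passed the test as higher with PIK75, by 0.22 to 0.40, against 33.3% of all genes. Of these 12, 2 passed as higher with the poly-A spikes equal, and 0 as higher and 2 as lower with the hybridization spikes equal. Nothing in the labels says that the 3 arrays of a group came from separate cultures, so the p-values measure only the spread between these arrays, which may be technical.

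With PIK75, member probe sets changed in both directions. TBC1D7, RRAGA and RRAGD fell, RRAGC rose in both of its bright probe sets, 1 probe set of TSC2 rose, 3 of the 9 RHEB probe sets rose, and the probe sets of RPS6KB1 split, although with the hybridization spikes equal only TSC2 215624_at still passed as higher. In all, 15 of 28 probe sets passed the limma test at an adjusted p below 0.05, 10 higher and 5 lower. These 53.6% lie near the 50.2% of all probe sets that passed (30.3% higher, 19.9% lower), so the number of changed members is not itself a result about them. The median member change was 0.098, against 0.084 over all probe sets. By the brightest probe set of each gene, 9 of 10 genes passed (5 higher, 4 lower), against 58% of all genes. Array values of the groups did not overlap for 17 probe sets, 11 above and 6 below control, against 57.5% of all probe sets. In bulk RNA, fewer cells carrying a transcript and less of it per cell cannot be told apart.

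**Figure D1:**
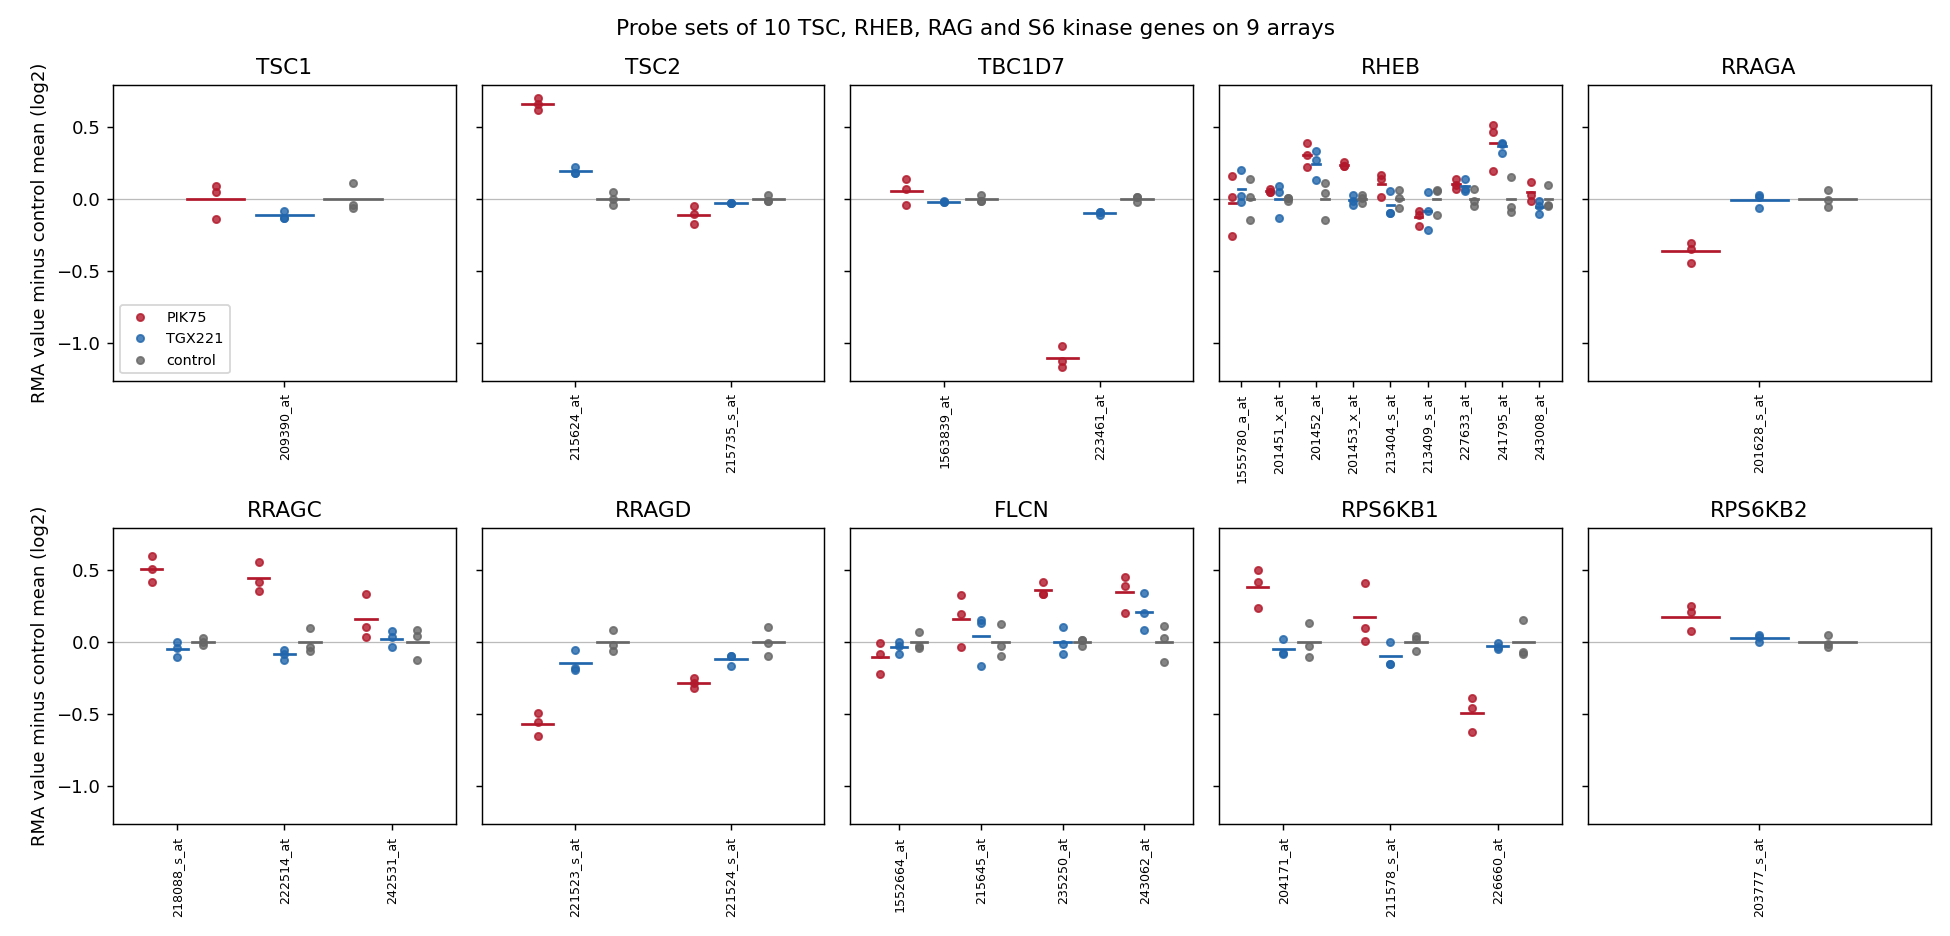
RMA value of each member probe set minus its control mean (log2, vertical axis), by gene, for each PIK75, TGX221 and control array (points, 3 per group). TBC1D7 223461_at stands about 1.1 below control on all 3 PIK75 arrays, and the bright probe sets of RRAGC and RRAGD lie on opposite sides of 0 with PIK75.

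In the TSC complex, TBC1D7, the third subunit, which stabilizes the complex, had the largest change. Its bright probe set 223461_at read 9.0, 9.04 and 9.15 with PIK75, 10.08, 10.08 and 10.06 with TGX221 and 10.18, 10.18 and 10.15 in controls. All 3 PIK75 arrays lay about 1 unit below every other array. TBC1D7 fell by 1.11 (SE 0.0524), a 2.16-fold lower signal than in controls with an adjusted p of 2.04e-08 in limma. Its second probe set, 1563839_at, was below 6 in every group and differed by 0.052 (adjusted p = 0.445 in limma), a level at which little can be seen. The mean of both probe sets differed by -0.53 and still passed. TSC1, the subunit that holds TSC2 in a stable complex, read 9.13, 9.09 and 8.90 with PIK75, 8.96, 8.91 and 8.91 with TGX221 and 9.0, 9.15 and 8.98 in controls. The groups overlapped, and the PIK75 difference of -0.0035 had a 95% interval of -0.16 to 0.15 (limma adjusted p = 0.970). With the hybridization spikes equal TSC1 passed as lower (-0.36, adjusted p = 0.000562).

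TSC2, the subunit with GTPase-activating activity toward RHEB, was measured by 2 probe sets that did not move alike. Probe set 215624_at, designed on an expressed sequence tag, read 8.85, 8.93 and 8.89 with PIK75, 8.41, 8.41 and 8.45 with TGX221 and 8.28, 8.19 and 8.23 in controls. The 3 groups were ranked without overlap, PIK75 highest and control lowest. The PIK75 rise was 0.66 (SE 0.0493), 1.58-fold, with an adjusted p of 6.59e-07 in limma, and it passed under all 17 alternatives, at 0.31 with the hybridization spikes equal and at 0.28 when a gene's probe sets were averaged. Probe set 215735_s_at read 8.03, 8.10 and 8.15 with PIK75, 8.17 on each TGX221 array and 8.23, 8.19 and 8.19 in controls. Its PIK75 arrays were the lowest, and the difference of -0.11 missed the threshold (limma adjusted p = 0.0972), although it passed as lower with array medians equal (-0.16), with cyclic loess (-0.20) and with the hybridization spikes equal (-0.46). Equal values on all 3 TGX221 arrays also occurred in 436 probe sets of the whole table and are a property of the deposited values. The difference between the TSC2 probe sets within an array, which adding a constant to a whole array cannot change, shifted by 0.76 with PIK75 and by 0.22 with TGX221 relative to control. The probe sets therefore do not give a single direction for TSC2.

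RHEB, the direct activator of mTORC1, was covered by 9 probe sets, 3 of which rose with PIK75 while 6 did not pass. The brightest, 201453_x_at, designed on the RefSeq transcript, read 13.04, 13.01 and 13.01 with PIK75, 12.81, 12.77 and 12.74 with TGX221 and 12.79, 12.81 and 12.75 in controls. The PIK75 arrays lay above all others, and the rise was 0.24 (SE 0.0482), 1.18-fold, with an adjusted p of 0.00184 in limma. It missed the threshold with the poly-A spikes equal (0.15, adjusted p = 0.212) and changed sign with the hybridization spikes equal (-0.11). RHEB has pseudogene copies and the ending _x_at marks probes that can bind other transcripts, so this signal may not be RHEB's alone.

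Probe set 241795_at for RHEB read 8.22, 8.49 and 8.54 with PIK75, 8.42, 8.35 and 8.41 with TGX221 and 7.97, 8.18 and 7.94 in controls. Arrays of both compounds lay above all controls. The difference from control was 0.39 with PIK75 (limma adjusted p = 0.00344) and 0.36 with TGX221 (adjusted p = 0.0864, 95% interval 0.17 to 0.56). Probe set 201452_at had the same order, at 9.40, 9.48 and 9.57 with PIK75, 9.45, 9.31 and 9.51 with TGX221 and 9.29, 9.03 and 9.22 in controls. Its differences were 0.30 with PIK75 (limma adjusted p = 0.00741) and 0.25 with TGX221 (adjusted p = 0.155). Both comparisons share the control arrays. Both PIK75 calls were lost with the actin difference as a covariate, at 0.30 for RHEB 241795_at (adjusted p = 0.0615) and 0.24 for 201452_at (adjusted p = 0.0905). With the poly-A spikes equal 201452_at also missed the threshold (0.22, adjusted p = 0.0913), and with the hybridization spikes equal 241795_at differed by 0.037 and 201452_at changed sign to -0.049. The 6 other RHEB probe sets differed by -0.13 to 0.10 between PIK75 and control, and the smallest of their adjusted p-values was 0.137. With cyclic loess, 213404_s_at (0.22) and 227633_at (0.17) passed as higher and 213409_s_at (-0.26) as lower, while with the hybridization spikes equal all 6 passed as lower, between -0.49 and -0.25, among them 213404_s_at (-0.25) and 227633_at (-0.25). These rises are no larger than those of the markers of absent cell types given above, and their part in the result was not tested.

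The RAG GTPases did not move together. RRAGC, a RAG GTPase on which FLCN acts, rose in both bright probe sets, while RRAGD, which can take the same place in the dimer, fell in both of its probe sets. RRAGC 218088_s_at read 10.04, 9.95 and 9.86 with PIK75, 9.44, 9.40 and 9.34 with TGX221 and 9.44, 9.42 and 9.47 in controls. PIK75 arrays stood apart above the others, and the rise of 0.51 (SE 0.0565), 1.42-fold, had an adjusted p of 1.76e-05 in limma. RRAGC 222514_at likewise read 9.65, 9.45 and 9.51 with PIK75, 9.01, 8.97 and 9.04 with TGX221 and 9.06, 9.03 and 9.19 in controls, with no overlap between PIK75 and the rest. It rose by 0.44, 1.36-fold (limma adjusted p = 0.000173). With the hybridization spikes equal neither passed, at 0.16 for 218088_s_at (adjusted p = 0.0749) and 0.092 for 222514_at (adjusted p = 0.321). The third RRAGC probe set, 242531_at, was below 6 in every group and differed by 0.16 (limma adjusted p = 0.124).

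RRAGD 221523_s_at read 9.92, 9.98 and 9.82 with PIK75, 10.29, 10.42 and 10.28 with TGX221 and 10.45, 10.56 and 10.41 in controls. The PIK75 arrays were lowest without overlap, and the TGX221 arrays overlapped the controls only at 10.42. RRAGD fell by 0.57 (SE 0.0649), 1.48-fold lower with PIK75, with an adjusted p of 2.33e-05 in limma. RRAGD 221524_s_at read 11.81, 11.77 and 11.74 with PIK75, 11.96, 11.96 and 11.89 with TGX221 and 12.05, 12.16 and 11.96 in controls. The PIK75 arrays were again lowest without overlap. RRAGD 221524_s_at fell by 0.28, 1.22-fold lower (limma adjusted p = 0.00206), and missed the threshold with cyclic loess (-0.16, adjusted p = 0.0523). RRAGA, which pairs with RRAGC or RRAGD, read 11.67, 11.63 and 11.53 with PIK75, 12.00, 11.91 and 11.99 with TGX221 and 11.97, 11.92 and 12.04 in controls. All PIK75 arrays were below all others, and RRAGA fell by 0.37 (SE 0.0576), 1.29-fold lower, with an adjusted p of 0.000282 in limma.

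Differences taken within an array show that these genes changed unequally whatever constant is added to a whole array, although the pairs were chosen after their values were seen and carry no test. A shift that depends on brightness would still change them. The interquartile range was 2.54 to 2.58 with PIK75 and 2.70 to 2.71 in controls, and its part in these differences was not tested. RRAGC 218088_s_at minus RRAGD 221523_s_at was 0.12, -0.03 and 0.04 with PIK75, -0.84, -1.02 and -0.94 with TGX221 and -1.01, -1.14 and -0.94 in controls. The size of such a difference has no meaning between probe sets, but its shift relative to control was 1.08 with PIK75 and 0.095 with TGX221. RRAGC 218088_s_at minus RRAGA shifted by 0.88 with PIK75, and TBC1D7 223461_at minus TSC1 shifted by -1.10 with PIK75 and by 0.022 with TGX221.

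FLCN, folliculin, which acts on RRAGC and RRAGD as a GTPase-activating protein, had 4 probe sets under the rule, of which 2 rose with PIK75. FLCN 235250_at read 8.68, 8.68 and 8.76 with PIK75, 8.33, 8.26 and 8.45 with TGX221 and 8.36, 8.36 and 8.32 in controls. PIK75 arrays were above all others, and the rise was 0.36, 1.28-fold (limma adjusted p = 0.000341). FLCN 243062_at read 8.25, 8.44 and 8.50 with PIK75, 8.39, 8.13 and 8.25 with TGX221 and 8.16, 7.91 and 8.08 in controls. PIK75 and TGX221 arrays overlapped here, and the rise over control was 0.34 (limma adjusted p = 0.00713). The probe set designed on the RefSeq transcript, 1552664_at, read 7.09, 6.88 and 7.02 with PIK75, 7.02, 7.10 and 7.07 with TGX221 and 7.06, 7.07 and 7.17 in controls, and its groups overlapped (-0.10, limma adjusted p = 0.186), although it passed as lower with cyclic loess (-0.24) and with the hybridization spikes equal (-0.46). The fourth, 215645_at, differed by 0.16 (limma adjusted p = 0.220). With the hybridization spikes equal 235250_at differed by 0.0093 (adjusted p = 0.914) and 243062_at by -0.0074, and 243062_at also missed the threshold with the actin covariate (0.28, adjusted p = 0.0862). Both FLCN rises lie within the 0.22 to 0.40 of the absent-cell markers that passed as higher, and whether they share that shift was not tested.

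RPS6KB1, which encodes the S6 kinase S6K1, gave opposite calls from different probe sets. RPS6KB1 204171_at, designed on the RefSeq transcript, read 10.37, 10.28 and 10.10 with PIK75, 9.78, 9.89 and 9.79 with TGX221 and 9.76, 9.84 and 10.00 in controls. The PIK75 arrays were the highest, and the rise was 0.39 (SE 0.0796), 1.31-fold, with an adjusted p of 0.00204 in limma. RPS6KB1 226660_at, designed on an expressed sequence tag and the brightest of the 3, read 9.95, 9.71 and 9.88 with PIK75, 10.29, 10.33 and 10.30 with TGX221 and 10.27, 10.25 and 10.49 in controls. Here PIK75 arrays were the lowest, and the fall of 0.49 (SE 0.0761), 1.41-fold lower, had an adjusted p of 0.00026 in limma. The difference 204171_at minus 226660_at within an array was 0.42, 0.57 and 0.23 with PIK75, -0.51, -0.44 and -0.52 with TGX221 and -0.51, -0.41 and -0.49 in controls, a shift of 0.88 with PIK75. The positions of these probes in the transcript were not used here. RPS6KB1 211578_s_at read 9.26, 8.95 and 8.86 with PIK75, 8.85, 8.70 and 8.70 with TGX221 and 8.79, 8.87 and 8.89 in controls. PIK75 and control arrays overlapped, and the difference of 0.17 did not pass (limma adjusted p = 0.128). Without PIK75 replicate 5, the array with the largest actin difference among the 9, it was 0.26 and passed (adjusted p = 0.0373), as it did with the actin covariate (0.32, adjusted p = 0.0324), but with the hybridization spikes equal it was -0.18 (adjusted p = 0.105). With the hybridization spikes equal the rise of 204171_at was 0.033 (adjusted p = 0.737). As deposited this rise lies within the 0.22 to 0.40 of the absent-cell markers that passed as higher, and whether it shares that shift was not tested.

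RPS6KB2, which encodes the related kinase S6K2, read 9.92, 9.88 and 9.75 with PIK75, 9.71, 9.72 and 9.67 with TGX221 and 9.72, 9.66 and 9.64 in controls. Its PIK75 arrays lay just above the rest. The rise was 0.18, 1.13-fold (limma adjusted p = 0.0193). It missed the threshold when any 1 of 4 arrays was left out, with adjusted p-values of 0.0529 without control replicate 3, 0.0637 without control replicate 5, 0.0646 without PIK75 replicate 1 and 0.0575 without PIK75 replicate 3. It also missed it with array medians equal (0.13) or the poly-A spikes equal (0.096), and changed sign with the hybridization spikes equal (-0.17). The RPS6KB2 rise is smaller than the 0.22 to 0.40 of the absent-cell markers that passed as higher, and whether it shares that shift was not tested.

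**Figure D2:**
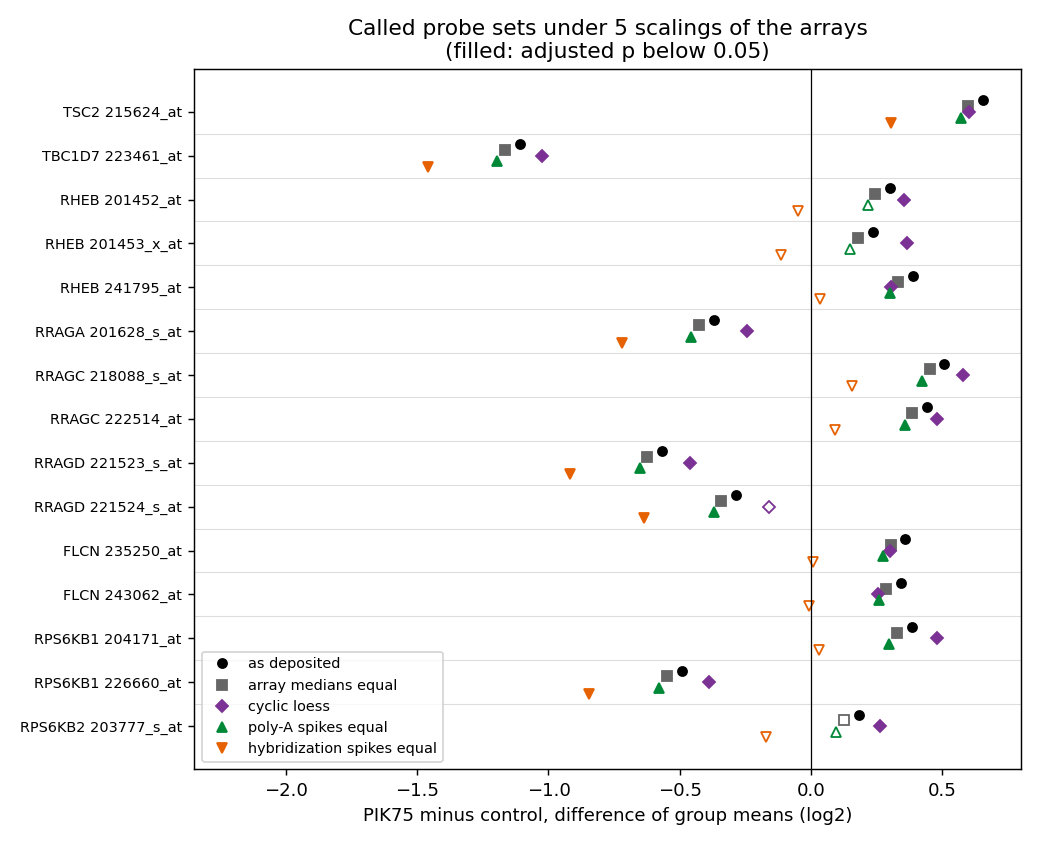
PIK75 minus control (log2, horizontal axis) of the 15 member probe sets that passed as deposited, under 5 scalings of the arrays, with filled points for an adjusted p below 0.05. TBC1D7, RRAGA, both RRAGD probe sets and RPS6KB1 226660_at lay below 0 under all 5 scalings, while with the hybridization spikes equal only TSC2 215624_at passed as higher.

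With TGX221, none of the 28 probe sets passed the limma test, against 0.269% of all probe sets (0.207% higher, 0.0623% lower). An unadjusted p below 0.05 was found for 5 of them. The share of all probe sets at that level was not counted, so this number cannot be read as a result about the members. The smallest adjusted p was 0.0864, for RHEB 241795_at, which passed with the poly-A spikes equal (0.42, adjusted p = 0.0231). Array values did not overlap with control for 6 members, 3 above and 3 below, against 21.6% of all probe sets. TSC2 215624_at was 0.19 higher (95% interval 0.082 to 0.30, limma adjusted p = 0.101), and no TGX221 array overlapped the controls. TBC1D7 223461_at differed by -0.094 (limma adjusted p = 0.411), RRAGD 221523_s_at by -0.14 (adjusted p = 0.301) and RRAGC 218088_s_at by -0.048 (adjusted p = 0.735). The 95% intervals of all 28 probe sets, each taken alone and on the deposited scale, lay between -0.30 and 0.56 (1.23-fold lower to 1.47-fold higher). As separate intervals they set no joint limit on the changes with TGX221.

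**Figure D3:**
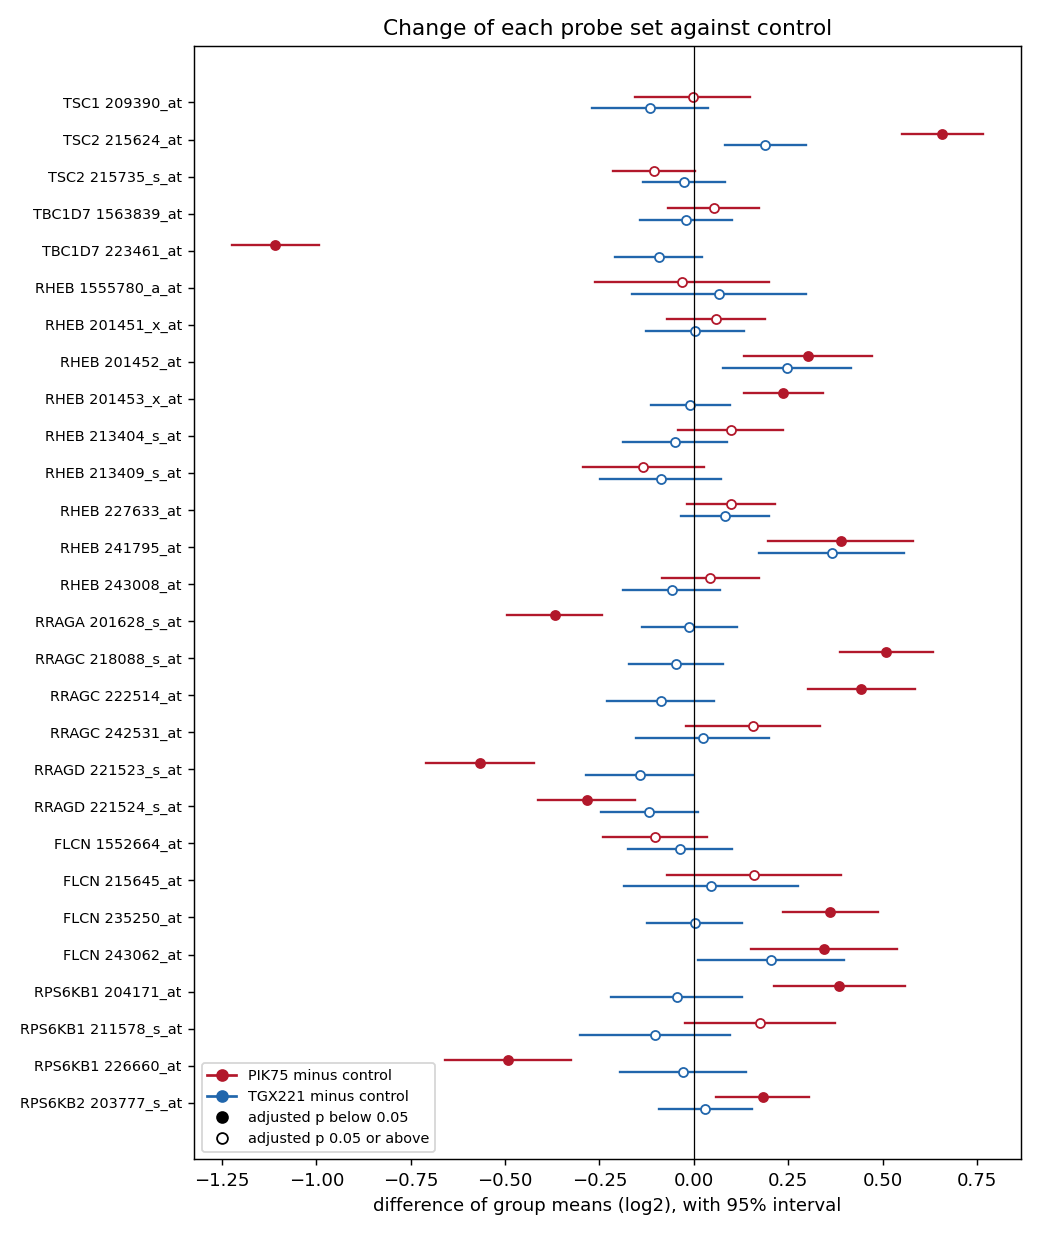
Difference from control (log2, horizontal axis) of each member probe set with PIK75 and with TGX221, with 95% intervals from limma (3 arrays per group). The TGX221 intervals reach no lower than -0.30 and no higher than 0.56, whereas TBC1D7 223461_at lies at -1.11 and TSC2 215624_at at 0.66 with PIK75.

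The compounds were also compared directly, although their labelled doses differ and no matched dose was measured, so the differences below belong to these doses. In PIK75 minus TGX221, 12 of 28 probe sets passed (7 higher, 5 lower), against 37.2% of all probe sets (20.3% higher, 16.9% lower). Array values did not overlap for 14 probe sets, against 48.1% of all, and by the brightest probe set 8 of 10 genes passed, against 44.6% of all genes. TBC1D7 223461_at was 2.02-fold lower with PIK75 than with TGX221 (-1.02, limma adjusted p = 5.10e-08). TSC2 215624_at was 0.47 higher (adjusted p = 1.38e-05), RRAGC 218088_s_at 0.56 higher (adjusted p = 1.01e-05) and RPS6KB1 204171_at 0.43 higher (adjusted p = 0.00119) in the same fit. The brightest RPS6KB1 probe set, 226660_at, went the other way and was lower with PIK75 (-0.46, limma adjusted p = 0.000487). With the hybridization spikes equal RPS6KB1 204171_at did not pass (0.14, limma adjusted p = 0.145). RRAGD 221523_s_at was lower with PIK75 (-0.42, limma adjusted p = 0.000291), as was RRAGA (-0.36, adjusted p = 0.000434). RHEB 241795_at differed by 0.024 between the compounds (95% interval -0.17 to 0.22, limma adjusted p = 0.850) and RHEB 201452_at by 0.056 (adjusted p = 0.597), and neither passed in this comparison. The brightest RHEB probe set, 201453_x_at, did pass as higher with PIK75 (0.25, limma adjusted p = 0.00176). FLCN 235250_at passed as well (0.36, limma adjusted p = 0.00042). Neither of these 2 passed with the poly-A spikes equal (0.10 and 0.21) or the hybridization spikes equal (-0.041 and 0.072).

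The 3 genes whose brightest probe sets followed TBC1D7 most closely over the 9 arrays were LDLRAD3 (Pearson r = 0.9993, PIK75 minus control -1.77), MTCL1 (r = 0.9988, -1.22) and LMO3 (r = 0.9987, -1.04). With 3 groups of which 1 stands apart, such values are common: 2099 of the 19774 other genes had r above 0.95 with TBC1D7.

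Among 74 other genes listed for the pathway, 68 were measured, and by their brightest probe set 17 rose, 25 fell and 26 did not pass with PIK75, against 33.3% higher and 24.7% lower of all genes. None passed with TGX221, against 0.324% of all genes (0.278% higher, 0.0455% lower). The PIK75 balance depends on the scaling, at 11 higher and 27 lower of 68 with the poly-A spikes equal and 3 higher and 49 lower with the hybridization spikes equal. Of all 54613 probe sets, 847 were higher and 37576 lower with the hybridization spikes equal. Counts on that scale, here and in the lists below, are therefore not by themselves results about these genes. In PIK75 minus TGX221, 17 were higher and 21 lower, against 22.9% and 21.7% of all genes. Of the RAG and RHEB relatives and FLCN partners, 4 of 6 fell and 1 rose, with a median of -0.69 against 0.088 over all genes. RRAGB, the close relative of RRAGA, averaged 6.45 with PIK75, 7.26 with TGX221 and 7.34 in controls and fell by 0.89 (limma adjusted p = 1.10e-06). FNIP2, a FLCN partner, fell by 0.87 (adjusted p = 2.62e-05 in limma) while FNIP1 differed by 0.093 (adjusted p = 0.234), with other FNIP1 probe sets called both ways. LARS1, the leucyl-tRNA synthetase that is also a leucine sensor for the RAG GTPases, fell by 1.02 (limma adjusted p = 1.99e-07), and RHEBL1, a RHEB relative, rose by 0.72 (limma adjusted p = 2.39e-05).

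In the Ragulator and lysosomal anchor list, 3 of 6 measured genes fell and 2 rose, with a median of -0.21, and 4 fell and 0 rose with the hybridization spikes equal. SLC38A9, the lysosomal arginine transporter that signals to the RAG GTPases, averaged 6.45 with PIK75, 7.30 with TGX221 and 7.51 in controls and fell by 1.06 (limma adjusted p = 8.61e-08), or by 0.55 with its probe sets averaged. LAMTOR2, a Ragulator subunit, rose by 0.46 (limma adjusted p = 1.54e-05) and BORCS6 rose by 0.47 (adjusted p = 0.0013 in limma), and neither passed with the hybridization spikes equal (0.11 for each), while LAMTOR5 fell by 0.28. In the list of GATOR and KICSTOR complexes, which relay amino acid status to the RAG GTPases, 4 of 11 fell and 3 rose (median -0.043), but 8 fell and 0 rose with the hybridization spikes equal (median -0.40), and 2 fell and 1 rose with the actin covariate. SEH1L (-1.30, limma adjusted p = 1.10e-08) and MIOS (-0.82, adjusted p = 3.60e-07) fell and SEC13 rose by 0.42, all of them GATOR2 subunits. The GATOR1 subunit NPRL3 rose by 0.36, with other NPRL3 probe sets called both ways and a mean of 0.032 that did not pass. SEC13 (0.065) and NPRL3 (0.011) did not pass with the hybridization spikes equal.

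Of the amino acid sensors, 1 of 5 rose and 2 fell (median -0.018), with SESN2 at 0.62, SESN1 at -0.65 and SESN3 at -1.82. Of mTORC1 subunits and binders, 3 of 7 fell and none rose (median -0.17), all 7 fell with the hybridization spikes equal, and the 3 as deposited were DEPTOR (-2.28), MTOR (-0.24) and AKT1S1 (-0.25, limma adjusted p = 0.0369), the last of which passed under 11 of 17 alternatives. AKT1S1 missed the threshold with the replicate block (adjusted p = 0.0564 in limma), with the actin covariate (-0.10, adjusted p = 0.459), in the fit of only the groups compared (adjusted p = 0.0627), and without control replicate 3 (-0.16), PIK75 replicate 3 (-0.23) or PIK75 replicate 5 (-0.18). Averaging the probe sets of a gene took MTOR to -0.070 (adjusted p = 0.205), DEPTOR to -1.08 and SESN3 to -0.43. Of the kinases and other inputs that act on the TSC complex or S6 kinase, 6 of 15 rose and 6 fell (median -0.11), but 3 rose and 6 fell with the poly-A spikes equal, and 0 rose and 9 fell with the hybridization spikes equal (median -0.46). AKT2 counts among the falls (-0.44), although 4 of its other probe sets passed as higher and 1 as lower. The 4 genes of this list named next are those of smallest p, and all of them fell. PRKAA1, a catalytic subunit of AMPK, which phosphorylates TSC2, averaged 7.01 with PIK75, 8.59 with TGX221 and 8.69 in controls and fell by 1.68 (limma adjusted p = 3.92e-08). HERC1, a ubiquitin ligase that acts on TSC2, fell by 0.69 (limma adjusted p = 8.95e-05), GSK3B by 1.03, with 1 other probe set of it higher and 1 lower, and DDIT4, an inhibitor of mTORC1 that acts through the TSC complex, by 1.80. With the probe sets of a gene averaged, PRKAA1 was at -0.48, GSK3B at -0.47 and HERC1 at -0.21, and all 3 still passed.

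In the list of S6 kinase substrates and the 4E-BP arm, which is another branch below mTORC1, 3 of 14 genes rose and 3 fell (median 0.014), and 1 rose and 10 fell with the hybridization spikes equal. RPS6, the substrate that names the kinases, differed by -0.025 (limma adjusted p = 0.667). EIF4B, a translation factor phosphorylated by S6 kinase, rose by 0.58 (limma adjusted p = 1.54e-06), and EIF4EBP1, a translation repressor that mTORC1 phosphorylates, rose by 0.47 while its relative EIF4EBP2 fell by 0.33, with other EIF4EBP2 probe sets called both ways and a mean over its probe sets of -0.13. URI1 fell by 0.54, but another of its probe sets was higher and their mean of -0.11 did not pass, and EIF4EBP1 did not pass with the hybridization spikes equal (0.11). Of the MiT/TFE factors, which the FLCN and RAG branch controls, TFE3 rose by 0.21 (limma adjusted p = 0.0216) and the other 3 did not pass. TFE3 passed under 10 of 17 alternatives, missing the threshold with array medians equal (0.15), the poly-A spikes equal (0.12), the actin covariate (0.14) and without control replicate 5 (0.17), PIK75 replicate 3 (0.21) or PIK75 replicate 5 (0.15), and it changed sign with the hybridization spikes equal (-0.15). As deposited, the 3 other TFE3 probe sets also passed as higher, and the mean over all its probe sets was 0.30. With the hybridization spikes equal the other 3 factors passed as lower, TFEB at -0.50, MITF at -0.29 and TFEC at -0.27. TFEB also passed as lower with the actin covariate (-0.27, limma adjusted p = 0.0275). The other probe set of TFEB passed as higher with PIK75 as deposited.

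**Figure D4:**
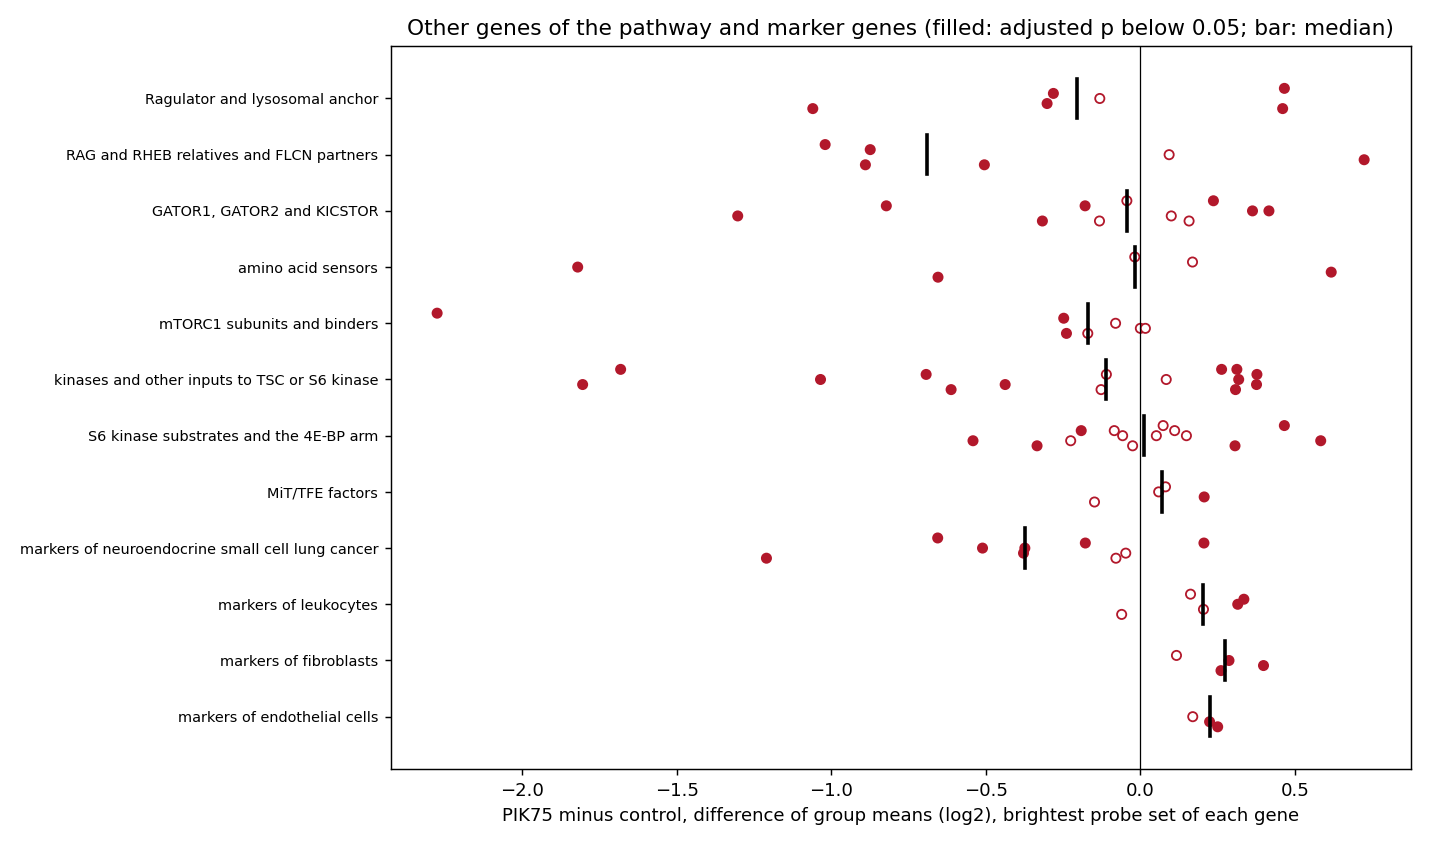
PIK75 minus control (log2, horizontal axis) of the brightest probe set of each listed pathway and marker gene, by list, with filled points for an adjusted p below 0.05 and a bar at each list's median. The list of RAG and RHEB relatives and FLCN partners has a median of -0.69, and markers of leukocytes, fibroblasts and endothelial cells lie mostly above 0.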

How the data were processed

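The deposited values are log2 signals, 1 for each array at each probe set, made by the authors with RMA per the submitters' processing notes, whose version is not given in the sources used here. All 9 sample columns were mapped through the array titles, and 0 were left unmapped. Of 54675 probe sets, 62 Affymetrix controls were set aside and 54613 were tested with limma 3.58.1 in R 4.3.3, with 1 mean per group over all 9 arrays (6 residual degrees of freedom), moderated variances and Benjamini-Hochberg adjustment over all probe sets, at an adjusted p below 0.05. The platform annotation gave 1 symbol for 41091 probe sets, several for 1801 and none for 11721, and only the first kind was used by gene. No filter on dim probe sets was applied, and a mean below 6 in every group is called dim, as held for 3 members. Markers of cell types the culture should lack averaged 7.26 to 7.29 per control array, with COL1A1 at 9.30. A mean above 6 therefore does not by itself show that a transcript was present.

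All members are described. From each pathway list, up to 4 genes with the smallest p in PIK75 minus control by the brightest probe set were named, together with the 3 genes most like the member of smallest p. FNIP1, RPS6 and AKT2 were named outside this rule after their values were seen. The members and lists were chosen with earlier results of these data known. On simulated data with 200 changed probe sets of 54613, the PIK75 comparison recovered 43 of 50 at 1.3-fold and 50 of 50 at each of 1.5-, 2- and 3-fold, with 11 false calls. Motifs and promoter windows were read with Python 3.11.15. Array number limits the precision, since 3 arrays per group leave an exact permutation test of 1 probe set no p below 0.1. Alternatives covered scaling by array medians, poly-A spikes, hybridization spikes or cyclic loess, the summary per gene, a filter on dim probe sets, a trended robust spread, a replicate block, the actin difference as a covariate, a fit of only the groups compared, and leaving out each array. The same alternatives for the listed genes were added after the data were seen.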

Additional observations from a re-analysis of the deposited data

How the results depend on the processing

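In PIK75 minus control, the 15 calls among 28 probe sets ran between 14 and 16 when 1 array was left out, and 12 to 19 were made under the scalings. With the hybridization spikes equal, 17 passed, 1 higher and 16 lower, against 10 higher and 5 lower as deposited, and with the poly-A spikes equal 7 were higher and 5 lower. Over all 54613 probe sets, 847 were higher and 37576 lower with the hybridization spikes equal, and 5066 and 11743 with the poly-A spikes equal. The number of lower members on these scales is therefore not itself a result about them. By the brightest probe set 9 of 10 genes passed, and by the mean of a gene's probe sets 8 of 10. TBC1D7 223461_at (-1.46 to -0.53), TSC2 215624_at (0.28 to 0.68) and RRAGA (-0.72 to -0.24) passed under all 17 alternatives. The hybridization spikes turned the sign of PIK75 minus control for TBC1D7 1563839_at (-0.30), RHEB 201451_x_at (-0.29), 201452_at (-0.049), 201453_x_at (-0.11), 213404_s_at (-0.25), 227633_at (-0.25) and 243008_at (-0.31), RRAGC 242531_at (-0.20), FLCN 243062_at (-0.0074), RPS6KB2 (-0.17) and TFE3 (-0.145), and, for values that passed on neither scale, FLCN 215645_at (-0.19) and RPS6KB1 211578_s_at (-0.18). They also turned PIK75 minus TGX221 for TBC1D7 1563839_at (-0.21), RHEB 201451_x_at (-0.23), 201452_at (-0.23), 201453_x_at (-0.041), 227633_at (-0.27), 241795_at (-0.26) and 243008_at (-0.18) and RPS6KB1 211578_s_at (-0.011), and, passing on neither scale, TSC1 (-0.17), RHEB 213404_s_at (-0.14), RRAGC 242531_at (-0.15), FLCN 215645_at (-0.17) and 243062_at (-0.15) and RPS6KB2 (-0.14). These turns follow from the construction, which moves every PIK75 value down by the spike difference. The mean of the RPS6KB1 probe sets, which holds both directions, was 0.022 (PIK75 minus control) and 0.081 (PIK75 minus TGX221).

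In TGX221 minus control, 0 probe sets passed except with the poly-A spikes equal, where 1 did, and leaving out an array gave 0 to 0. In PIK75 minus TGX221, the 12 calls ran between 10 and 14 when 1 array was left out, 18 passed with the hybridization spikes equal (3 higher, 15 lower), and with p adjusted over the brightest probe sets alone 9 of 10 genes passed, and 7 of 10 by the mean of a gene's probe sets. The share of all probe sets passing with the hybridization spikes equal was not counted for PIK75 minus TGX221. Same-numbered PIK75 and control arrays deviated together at correlations of -0.073, 0.093 and -0.001, so the numbers were not taken to pair the arrays. With the replicate block 15 probe sets passed in PIK75 minus control, 0 in TGX221 minus control and 10 in PIK75 minus TGX221, where RRAGD 221524_s_at (-0.16, adjusted p = 0.115 in limma) and RPS6KB1 211578_s_at (0.28, adjusted p = 0.0744) no longer passed. In simulated data with 200 changed probe sets, 43 of 50 changes of 1.3-fold were recovered. With PIK75, 50.2% of all probe sets passed, which makes the adjusted threshold looser than in the simulation. The simulated recovery therefore sets no lower limit on the changes that could pass.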

Other observations

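A further probe set, 227037_at, is annotated to both PLD6 and FLCN and lies outside the rule for the members. It read 9.74, 9.54 and 9.54 with PIK75, 9.51, 9.55 and 9.37 with TGX221 and 9.54, 9.61 and 9.55 in controls. The groups overlapped, and it differed from control by 0.042 with PIK75 (limma adjusted p = 0.620) and by -0.088 with TGX221 (adjusted p = 0.575).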
